A study of Mus musculus with 4 samples.

Results

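Collagen chain genes were described in OP9 cells, a mouse stromal cell line, by taking every array probe whose name on the array or current symbol has the form Col, a number, a and a number. This gave 43 genes with 85 probes, among 27597 genes and 41174 probes on the array. Of these, 40 genes with 72 probes were bright enough to be tested. The series held 2 Control samples, in which the cells carried the retroviral vector LZRS-IRES-GFP with no insert, and 2 Wnt3A samples, in which the same vector carried the Wnt3A gene. All 4 samples were therefore OP9 cells with the same vector backbone, and the comparison asked what the inserted gene changed. The labels do not name the promoter that drove the insert, say whether a group was 1 clone, or say that the 2 samples of a group came from separate cultures. The p-values thus measure the spread between these samples, which may be technical. RNA was amplified by a global PCR before a 1-colour Agilent array was hybridised with each sample.

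Collagens are the main structural proteins of the extracellular matrix. Each chain carries a long run in which glycine recurs at a fixed spacing, and chains wind around each other into a rigid helix. Fibrillar collagens assemble into the banded fibrils of connective tissue, network collagens form sheets such as the basement membrane, and FACIT collagens sit on the surface of fibrils. Bone marrow stromal cells make fibrillar collagen as well as basement membrane collagen, and canonical Wnt signals act through TCF/LEF factors bound to DNA.

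The glycine repeat was visible in the probes themselves, and these sequences are shown because they are the feature that all the chains share. A search of the 41174 probes for at least 6 glycine codons (GGN) spaced exactly 9 bases apart found 3 probes, and all 3 lay in collagen chains. Capitals mark the glycine codons of the longest such run, and the letters and positions are those of the array annotation (build mm8).
Col5a1 (chr2:27808732-27811155): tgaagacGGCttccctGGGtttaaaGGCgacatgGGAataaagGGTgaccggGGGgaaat
Col5a3 (chr9:20536024-20536753): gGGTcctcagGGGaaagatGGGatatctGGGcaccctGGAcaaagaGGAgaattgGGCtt
Col11a2 (chr17:33662796-33662962): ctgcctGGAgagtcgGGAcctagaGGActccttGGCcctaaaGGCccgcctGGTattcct
The genomic span of each is longer than the 60 bases of the probe, so each crosses a splice junction of its gene. Position by position, 25 of 60 bases matched between the Col5a1 and Col5a3 probes, 22 between Col5a1 and Col11a2, and 23 between Col5a3 and Col11a2. The Col5a1 probe was the one that stood for its gene and gave the Col5a1 values below.

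Levels are intensities of a deposited table in which every column has a median of 1, and a level of 1 probe cannot be set against that of another. A value below an estimated detection floor (0.0533 to 0.0729 over the 4 arrays) was taken as not measured. Differences are Wnt3A minus Control on the log2 scale after each array was aligned on its 75th percentile, with the standard error of the fit and an adjusted p from limma. The tested probe with the highest mean log2 level over the 4 arrays, called the main probe, stands for its gene. It need not be the brightest on each array. The scanner output of the arrays was also deposited. In it 41.8% of spots of Control replicate 1 and 71.6% to 85.7% of spots of the other 3 arrays were well above background, and all 4 table columns ranked closest to the scanner file of Control replicate 2. The 1 probe for Wnt3a was above the floor only on Wnt3A replicate 2 (0.123, against 0.0112 on Wnt3A replicate 1 and 0.0151 and 0.0134 in Control). Whether the insert holds the probed end of the transcript is not given, so this probe checks no label. Of the 10 bone marrow stroma markers, all were tested and 9 were above the floor on every array. Of these markers, 9 of 10 were lower in the Wnt3A arrays, 5 of them at an unadjusted p under 0.05 (median over the list -1.06). Among them were the fibroblast receptor gene Pdgfra (-2.25, adjusted p = 0.132), the chemokine gene Cxcl12 (-1.44, 0.251) and Ly6a (-1.38, 0.249), and none of the 9 passed. Over all genes tested, 49% were higher, 6.34% were lower at that unadjusted p, and the median was -0.013. Vim, 1 of the 5, rested on its main probe (-0.90). Its 2 probes split in direction, and their mean differed by -0.19. The marker that was not above the floor on every array was Nt5e (CD73), which was below the floor on both Control arrays and rose in the Wnt3A arrays, at least 53.1-fold against the floor (adjusted p = 0.0403). Nt5e entered the test through the Wnt3A arrays alone, and its p rests on Control values taken as not measured. The summed level of the 10 markers, of which S100a4 alone gave 738 on Control replicate 1, was 1146 and 1639 in the Control arrays against 569 and 642 in the Wnt3A arrays. The macrophage markers had summed levels of 17.6 and 14.0 in the Control and 13.4 and 13.2 in the Wnt3A arrays, with the pan-leukocyte gene Ptprc between 0.112 and 0.190. Of the markers of other cell types, 4 of 8 endothelial, 7 of 7 epithelial and 5 of 7 erythroid and lymphoid genes were tested, with summed levels of 7.82 to 9.92, 13.5 to 17.8 and 6.42 to 19.1 over the arrays. A sum adds different probes, so it is read between arrays and not between lists. All these sums are of the table, and the scanner values differed. There the macrophage marker Tyrobp read 184 and 17076 in the Control and 206 and 47139 in the Wnt3A arrays. Ptprc read 61.4 and 4756 in the Control and 70.6 and 2261 in the Wnt3A arrays. Aif1 did not share this pattern (215 and 1757, against 2495 and 1543). In the scanner values the main Nt5e probe read 2.75 and 64.6 in the Control and 42.4 and 3.43 in the Wnt3A arrays. Control replicate 2 and Wnt3A replicate 1 were well above background for it, and the other arrays were not. The scanner values thus did not show the rise of Nt5e seen in the table. The part of all these markers in the collagen values was not tested. In RNA from a whole culture, fewer cells that make a chain and less RNA per cell cannot be told apart.

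By the main probe, 0 of 40 collagen genes passed an adjusted p of 0.05, where 0.643% of all 22859 genes tested did (0.402% rose and 0.241% fell). The smallest value was 0.0556, for Col11a1. At an unadjusted p under 0.05 there were 15 collagen genes, 8 higher and 7 lower in the Wnt3A arrays, where 12.7% of all genes tested met that mark (6.31% higher and 6.34% lower). The arrays of both groups did not overlap for 26 of 40 genes (13 higher and 13 lower), against 45.2% of all genes (21.5% and 23.7%). A difference of more than 1 was seen for 14 of 40 (8 higher and 6 lower), against 20.1% (10.2% and 9.83%). The classes are described by their medians, and the difference between classes was not tested. The fibrillar chains had a median difference of 1.77, with 9 of 11 higher (49% of all genes were higher). The medians were -0.37 for 9 network chains, -0.19 for 7 FACIT chains and -0.23 for 13 other chains, and -0.013 for all genes. Exact tests on 2 against 2 arrays cannot give a two-sided p below 0.333.

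**Figure D1:**
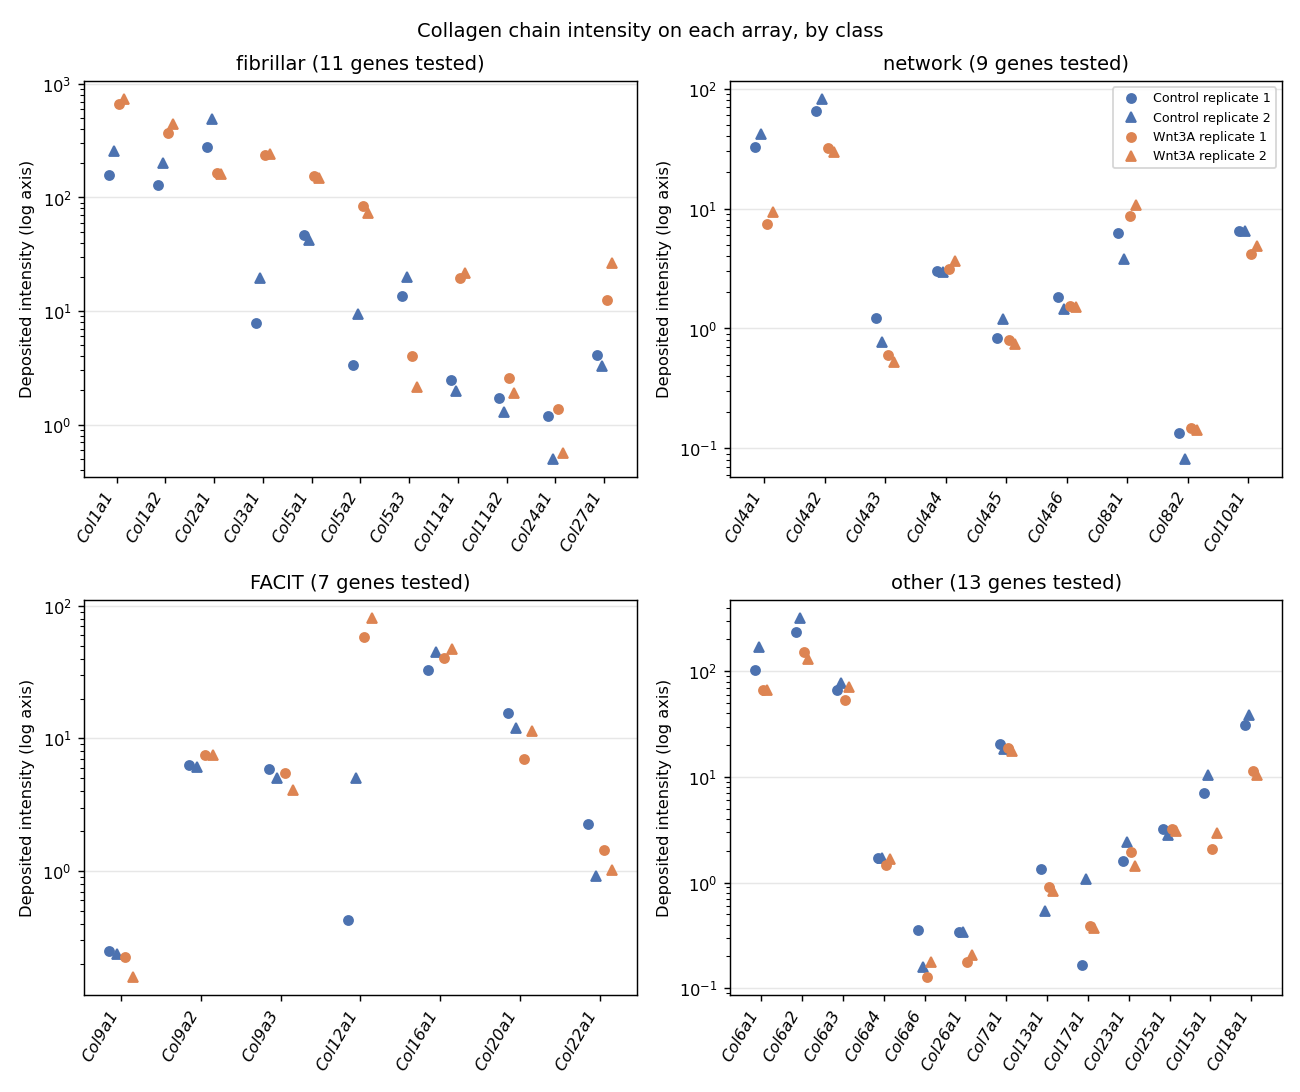
Intensity of each tested collagen chain on every array (log axis), in 1 panel per class, with Control arrays in blue, Wnt3A arrays in orange, and circles and triangles for replicates 1 and 2. Each point is the level of the gene's main probe on 1 array, so levels are compared within a gene and not between genes. Col3a1, Col5a2, Col11a1 and Col12a1 are far higher in both Wnt3A arrays, whereas Col4a1, Col5a3, Col15a1 and Col18a1 are lower in both.

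**Figure D2:**
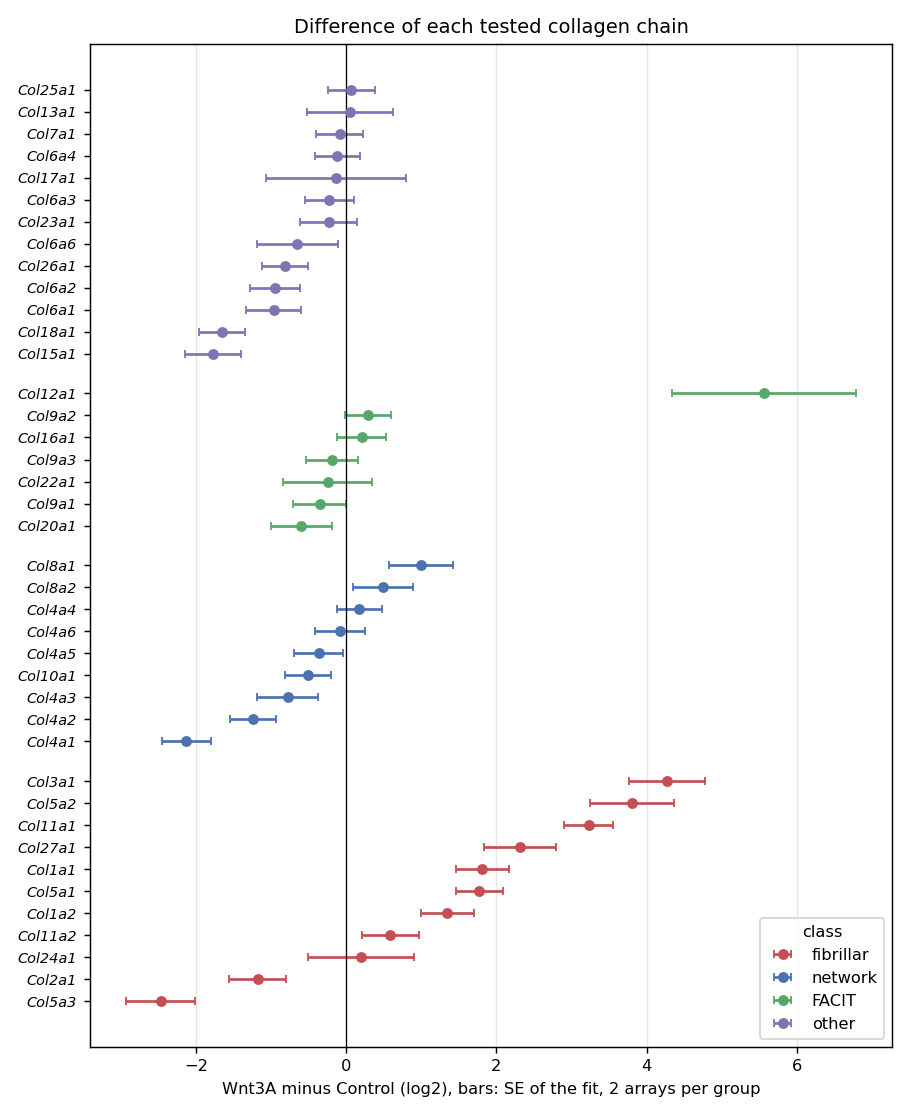
Wnt3A minus Control difference (log2) of the 40 tested collagen chains, ordered by size within each class, with bars for the standard error of the fit on 2 arrays per group. Fibrillar chains run from -2.47 (Col5a3) to 4.27 (Col3a1), network chains from -2.13 (Col4a1) to 0.995 (Col8a1), and Col12a1 (5.57) has the widest bar.

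Among fibrillar chains, those of types I, III, V and XI are the ones that build fibrils in skin, bone and tendon. Col1a1 encodes the alpha-1 chain of type I, the bulk collagen of bone. Its intensity was 158 and 256 in the Control arrays against 671 and 736 in the Wnt3A arrays, a difference of 1.81 ± 0.36 (adjusted p = 0.159). Col1a2, its partner chain, read 130 and 200 in the Control and 371 and 445 in the Wnt3A arrays, 1.35 ± 0.35 higher (0.242). In both genes each Wnt3A array lay above each Control array, and the 3 probes of Col1a1 and the 2 of Col1a2 all pointed the same way.

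Col3a1 encodes the single chain of type III collagen, which forms fine fibrils together with type I in soft tissue and marrow. It read 7.86 and 19.6 in the Control arrays against 236 and 239 in the Wnt3A arrays, a difference of 4.27 ± 0.51 (adjusted p = 0.0721). The Wnt3A arrays were nearly equal, and the Control arrays were the ones that differed from each other. Col5a2, a chain of type V collagen, which sets fibril diameter, is the next collagen gene to Col3a1 on chromosome 1. Its levels were 3.38 and 9.51 in the Control and 83.9 and 73.7 in the Wnt3A arrays, a difference of 3.81 ± 0.56 (0.102). Control replicate 1 was the lowest array for both neighbours.

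The chains of type V differed in both directions. Col5a1 read 47.1 and 41.9 in the Control arrays against 154 and 147 in the Wnt3A arrays (1.77 ± 0.31, adjusted p = 0.132), with tight values within each group. Col5a3, the less widespread chain of type V, went the other way. It read 13.7 and 20.0 in the Control and 4.05 and 2.16 in the Wnt3A arrays, a difference of -2.47 ± 0.46 (0.144). The groups overlapped for none of the 3 type V genes. The second Col5a3 probe, printed above with its glycine codons, was also lower in the Wnt3A arrays (-2.18, 0.296).

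Col11a1 encodes a chain of type XI collagen, which starts fibrils in cartilage and is also made by activated fibroblasts. Its main probe (chr3:114211239-114211297, build mm8) read 2.46 and 1.98 in the Control and 19.4 and 21.6 in the Wnt3A arrays, 3.23 ± 0.33 higher. This was the closest of all the chains to the threshold. Without either Control array the other Col11a1 probe had the highest mean and the gene's value was 7.92 or 8.25, and without either Wnt3A array it was 3.29 or 3.17. Its partner Col11a2 was 0.59 higher (adjusted p = 0.602).

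Col27a1, a fibrillar chain of cartilage, read 4.12 and 3.29 in the Control arrays against 12.5 and 26.4 in the Wnt3A arrays (2.31 ± 0.48, adjusted p = 0.174). Here the Wnt3A arrays spread more than the Control arrays and did not overlap them. Col2a1, the main collagen of cartilage, was the other fibrillar chain with lower values. It read 281 and 492 in the Control and 165 and 161 in the Wnt3A arrays (-1.18 ± 0.38, 0.320), and its 3 probes were all lower. Col24a1 differed by 0.19 (0.946), and its groups overlapped.

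Among FACIT chains, Col12a1, whose protein coats type I fibrils in tendon and other dense tissue, stood apart from the rest of its class. Its main probe read 0.425 and 4.99 in the Control and 57.7 and 81.4 in the Wnt3A arrays, a difference of 5.57 ± 1.22 (adjusted p = 0.188). The Control arrays lay far from each other, and the lower one was Control replicate 1. Without either Control array the fitted difference was 3.84 or 7.29. Col16a1, a fibril-associated chain of many tissues, read 32.7 and 44.7 in the Control and 40.5 and 47.3 in the Wnt3A arrays (0.21, 0.849), so the groups overlapped. Type IX chains decorate cartilage fibrils. Col9a1 read 0.249 and 0.237 in the Control and 0.225 and 0.158 in the Wnt3A arrays (-0.35 ± 0.35, 0.744), with overlap after alignment of the arrays. Col9a2 read 6.32 and 6.04 in the Control and 7.45 and 7.54 in the Wnt3A arrays (0.29 ± 0.30, 0.756), a small difference without overlap. Col9a3 differed by -0.19 and Col22a1 by -0.25, and both overlapped. Col20a1 read 15.5 and 11.9 in the Control and 6.99 and 11.4 in the Wnt3A arrays (-0.60, 0.622), where the upper Wnt3A array nearly reached the lower Control array. Col14a1 and Col19a1, both FACIT chains, and Col28a1 were not tested, and their 7 probes read between 0.0108 and 0.354.

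Network chains were led by type IV collagen, the scaffold of the basement membrane. Col4a1 read 32.6 and 41.6 in the Control arrays against 7.41 and 9.39 in the Wnt3A arrays, a difference of -2.13 ± 0.32 (adjusted p = 0.107). Col4a2, its partner in the common type IV molecule, read 65.1 and 81.9 in the Control and 31.7 and 29.6 in the Wnt3A arrays (-1.24 ± 0.31, 0.224). Both genes had no overlap between the groups, and all 4 of their probes were lower in the Wnt3A arrays. Col4a3, a chain of kidney basement membrane, read 1.23 and 0.776 in the Control and 0.605 and 0.526 in the Wnt3A arrays (-0.78 ± 0.40, 0.511), with no overlap. The other chains of specialised basement membranes differed by 0.18 (Col4a4), -0.37 (Col4a5) and -0.079 (Col4a6), with adjusted p of 0.711 or more. Col8a1, a short-chain collagen of vessel walls, read 6.30 and 3.78 in the Control and 8.63 and 10.8 in the Wnt3A arrays (0.995 ± 0.42, 0.429). Col8a2 was 0.49 higher and Col10a1, the collagen of hypertrophic cartilage, had a difference of -0.51, and neither passed the test.

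Of the other chains, the multiplexins Col15a1 and Col18a1 had the largest differences, both negative. They are basement membrane collagens, and the end of the Col18a1 protein is released as endostatin. Col18a1 read 31.2 and 39.0 in the Control arrays against 11.5 and 10.5 in the Wnt3A arrays (-1.65 ± 0.31, adjusted p = 0.144). Col15a1 read 6.98 and 10.5 in the Control and 2.08 and 2.96 in the Wnt3A arrays (-1.78 ± 0.37, 0.177). Neither overlapped between groups, and both probes of each gene were lower. Type VI collagen forms beaded filaments around cells. Col6a1 read 103 and 170 in the Control and 66.8 and 67.2 in the Wnt3A arrays (-0.97 ± 0.36, 0.374). Col6a2 read 235 and 321 in the Control and 153 and 130 in the Wnt3A arrays (-0.95 ± 0.33, 0.346). Both were lower on each Wnt3A array than on any Control array, while Col6a3, the third chain of the molecule, overlapped (-0.22, 0.836). The anchoring fibril chain Col7a1 (-0.086) and the transmembrane chains Col13a1, Col17a1, Col23a1 and Col25a1 (-0.23 to 0.069) overlapped between the groups as well. So did the rarer type VI chains Col6a4 (-0.12) and Col6a6 (-0.65), whereas Col26a1 read 0.340 and 0.337 in the Control and 0.177 and 0.208 in the Wnt3A arrays (-0.81 ± 0.31, 0.376) without overlap.

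Some single probes passed where the main probe of their gene did not. Of 72 collagen probes, 4 rose and 0 fell at an adjusted p under 0.05, which is 5.56%, against 0.679% of all 33709 probes (0.424% rose and 0.255% fell). None of the 4 was the main probe of its gene. The second Col11a1 probe (chr3:114082172-114082231) read 0.224 and 0.304 in the Control arrays against 74.1 and 66.8 in the Wnt3A arrays, a rise of 8.08 ± 0.32 (adjusted p = 0.0226). A Col27a1 probe (chr4:62820812-62820871) read 0.378 and 0.373 in the Control and 34.1 and 61.3 in the Wnt3A arrays, a rise of 6.94 ± 0.41 (0.0279). Both were dim but above the floor in the Control arrays, with replicates close to each other. The second Col3a1 probe (chr1:45266098-45266157) read 2.14 and 5.09 in the Control and 134 and 133 in the Wnt3A arrays (5.35 ± 0.49, 0.0454). The second Col12a1 probe (chr9:79390205-79390264) read 0.293 and 0.130 in the Control and 9.18 and 12.5 in the Wnt3A arrays (5.79 ± 0.55, 0.0479). The probes of these 4 genes agreed in direction but not always in size. Both Col12a1 probes differed by similar amounts (5.57 and 5.79), while the Col11a1 probes gave 3.23 and 8.08 and the Col27a1 probes ran from 2.31 to 6.94. Several tested probes were at hand for 26 genes. They all pointed 1 way for 21 of these, and for 14 of 14 at an unadjusted p under 0.05. The second Col11a2 probe was lower while the main one was higher (-0.37 and 0.59), and the Col23a1 probes also split (-0.23, 0.88 and 0.90). With any 1 array left out, 0% of all probes on the array passed, so those fits could not call a collagen probe.

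**Figure D3:**
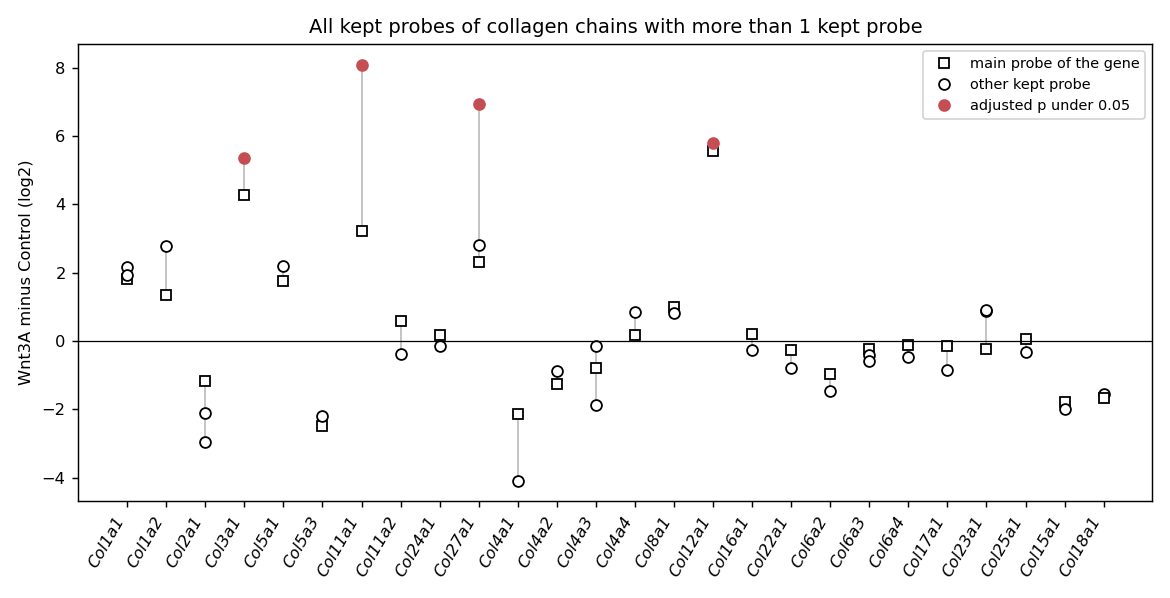
Wnt3A minus Control difference (log2) of every tested probe of the 26 collagen genes with more than 1 such probe. Squares are the main probe of a gene (highest mean level over the 4 arrays), circles its other probes, and red marks an adjusted p under 0.05, reached by 1 probe each of Col3a1, Col11a1, Col27a1 and Col12a1.

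Chains that assemble into 1 molecule were compared as ratios within an array, which cancel a factor common to all spots of that array. Whether the table was scaled by such a factor alone is not stated. The ratios have no test of their own, and each is given as its log2 shift from the mean of the Control arrays. For Col1a1 over Col1a2 the Wnt3A arrays were at 0.53 and 0.40, a small shift that still lay outside both Control arrays (-0.038 and 0.038). This shift rests on the main probes. With the mean of a gene's kept probes Col1a1 differed by 1.98 and Col1a2 by 2.07. For Col5a2 over Col5a3 the Wnt3A arrays were at 5.92 and 6.64, and for Col5a1 over Col5a3 at 3.82 and 4.66. For Col5a1 over Col5a2 they were at -2.09 and -1.97. The ratios to Col5a3 had the largest shifts of the 8 ratios plotted, and each was larger than the distance between replicates. For Col11a1 over Col11a2 the Wnt3A arrays were at 2.35 and 2.93. For Col4a1 over Col4a2 they were at -1.11 and -0.67, for Col6a1 over Col6a3 at -0.54 and -0.95, and for Col6a1 over Col6a2 at -0.14 and 0.10, the only pair of the 8 plotted in which the groups overlapped.

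**Figure D4:**
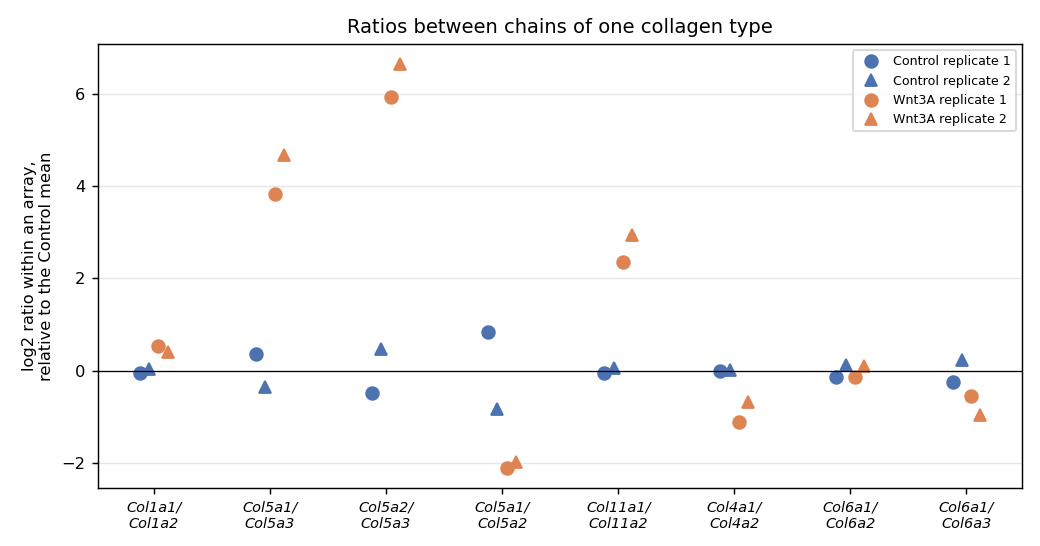
Log2 ratio of 2 chains of the same collagen type on each array, relative to the mean of the Control arrays, with Control in blue and Wnt3A in orange and with circles and triangles for replicates 1 and 2. The Wnt3A arrays lie at 5.92 and 6.64 for Col5a2 over Col5a3 and on both sides of 0 for Col6a1 over Col6a2.

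Several collagen genes sit beside each other in the genome. Of 6 pairs of neighbouring collagen genes in the RefSeq table (build GRCm38.p6), both genes were tested in 5, and 4 pairs had the same direction: Col3a1 with Col5a2 (both higher), and Col4a1 with Col4a2, Col6a1 with Col6a2 and Col4a5 with Col4a6 (all lower). Col4a3 and Col4a4 differed in opposite directions (-0.78 and 0.18). Col4a1 and Col4a2 are read outward from a shared promoter. The stretch between their RefSeq starts was 22 bases long and is shown for its shortness, with no letters marked. It holds the letters GGGCGG, left in lower case here.
Col4a1 and Col4a2 starts (chr8:11312805-11312826, plus strand): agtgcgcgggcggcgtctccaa

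The 250 bases before the start of 3 of the higher chains are shown because these members had higher values together. They are RefSeq sequences of build GRCm38.p6, all on the plus strand. Capitals mark, on either strand, the CCAAT box (CCAAT), the GC box (GGGCGG) and the TATA box (TATAAA).
Col1a2 (chr6:4505368-4505617): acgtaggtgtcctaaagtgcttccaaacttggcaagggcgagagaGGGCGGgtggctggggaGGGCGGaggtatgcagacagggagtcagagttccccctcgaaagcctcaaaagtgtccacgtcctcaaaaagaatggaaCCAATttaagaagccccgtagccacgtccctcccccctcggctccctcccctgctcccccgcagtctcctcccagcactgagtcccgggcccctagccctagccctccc
Col3a1 (chr1:45311288-45311537): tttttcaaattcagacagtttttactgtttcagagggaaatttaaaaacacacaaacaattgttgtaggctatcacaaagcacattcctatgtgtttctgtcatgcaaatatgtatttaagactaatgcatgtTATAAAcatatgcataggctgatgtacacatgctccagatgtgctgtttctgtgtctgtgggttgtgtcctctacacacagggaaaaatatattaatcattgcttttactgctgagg
Col11a1 (chr3:114030290-114030539): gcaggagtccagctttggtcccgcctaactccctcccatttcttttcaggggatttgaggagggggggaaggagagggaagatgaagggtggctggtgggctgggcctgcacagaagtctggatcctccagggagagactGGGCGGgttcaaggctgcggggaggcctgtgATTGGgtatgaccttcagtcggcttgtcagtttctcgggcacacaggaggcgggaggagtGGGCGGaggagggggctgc
A promoter was found for 34 of the 43 genes. The TCF/LEF letters CTTTGAA or CTTTGAT, on either strand, were in 7.48% of all 32851 promoters of this length and in those of 5 collagen genes (Col6a2, Col9a1, Col9a2, Col13a1 and Col15a1). Of the members at an unadjusted p under 0.05 with a promoter here, 0 of 5 higher and 2 of 6 lower genes held it. CCAAT was in 33.8% of all promoters and 13 collagen genes, GGGCGG in 32.7% and 20, and TATAAA in 12.4% and 5. A match of letters is not a binding site, and the absence of one says only that these letters are not in this window.

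Before secretion, collagen chains are hydroxylated, folded, trimmed and later crosslinked, and cells bind the fibrils through receptors. Of 47 genes on lists of these steps, 45 were tested (not Tll1 and Tll2). Of these, 1 rose and 0 fell, against 0.643% of all genes that did either. Positive differences were seen for 31 and negative ones for 14, with a median of 0.18, where 49% of all genes had a positive one. Itga11, the integrin subunit that binds fibrillar collagen, was the gene that rose. It read 0.0350 and 0.0150 in the Control arrays, below the floor, and 19.5 and 14.7 in the Wnt3A arrays. The rise was at least 256-fold against the floor (adjusted p = 0.0279, limma). The gene entered the test through the Wnt3A arrays alone, and this p rests on Control values taken as not measured. The alternatives on the table rest on such values too, and 7 of the 12 that tested Itga11 gave an adjusted p under 0.05 (0.0149 to 0.192). Fits with 1 array left out called 0% of all genes and so could not call it. In the scanner values the Itga11 probe read 2.78 and 11.4 in the Control and 122 and 6.28 in the Wnt3A arrays. Only Wnt3A replicate 1 was well above background there, so the gene was not tested in that source. The fibrillar collagen receptor kinase Ddr2 read 27.5 and 32.0 in the Control and 72.7 and 49.0 in the Wnt3A arrays (1.02 ± 0.36, adjusted p = 0.354). The collagen uptake receptor Mrc2 read 39.0 and 44.8 in the Control and 12.9 and 25.5 in the Wnt3A arrays (-1.19 ± 0.44, 0.368). Neither overlapped between the groups.

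Genes for folding and secretion had the highest list median (0.78, 7 of 9 with positive differences). Serpinh1, the collagen-specific chaperone HSP47, read 10.6 and 11.1 in the Control and 23.1 and 24.0 in the Wnt3A arrays (1.13 ± 0.30, adjusted p = 0.242), without overlap. Creb3l1, a transcription factor of collagen production in bone, read 6.38 and 6.16 in the Control and 16.4 and 30.1 in the Wnt3A arrays (1.84 ± 0.42, 0.195), also without overlap. Tram2, which helps type I collagen into the endoplasmic reticulum, read 1.05 and 3.01 in the Control and 4.97 and 4.58 in the Wnt3A arrays (1.43 ± 0.57, 0.396). Propeptide removal had a median of 0.60 over 6 genes. There Pcolce, the enhancer of the C-terminal protease, read 20.8 and 19.8 in the Control and 47.8 and 53.2 in the Wnt3A arrays (1.33 ± 0.30, 0.1995). The protease Bmp1 read 10.9 and 6.97 in the Control and 16.0 and 25.6 in the Wnt3A arrays (1.22 ± 0.45, 0.368). Both had no overlap. Pcolce2, a related enhancer, read 1.05 and 0.327 in the Control and 0.0302, below the floor, and 0.363 in the Wnt3A arrays (-2.47 ± 1.39, 0.545), with overlap. The modifying enzymes had a median of 0.18 over 15 genes. The prolyl 3-hydroxylase family member P3h3 read 25.7 and 38.8 in the Control and 64.6 and 70.9 in the Wnt3A arrays (1.11 ± 0.34, 0.299). The prolyl 4-hydroxylase subunit P4ha3 read 1.25 and 3.15 in the Control and 0.710 and 0.923 in the Wnt3A arrays (-1.28 ± 0.53, 0.411). The galactosyltransferase Colgalt1 read 14.2 and 15.1 in the Control and 31.9 and 20.8 in the Wnt3A arrays (0.82 ± 0.37, 0.449). None of the 3 overlapped, and they differed in both directions.

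The crosslinking oxidases differed in both directions as well. Lox read 2.98 and 8.17 in the Control and 9.49 and 12.7 in the Wnt3A arrays (1.17 ± 0.56, adjusted p = 0.483). Loxl4 read 19.8 and 12.2 in the Control and 27.9 and 27.1 in the Wnt3A arrays (0.83 ± 0.40, 0.483). Loxl1, an enzyme of elastic fibres, read 5.74 and 9.67 in the Control and 2.95 and 3.86 in the Wnt3A arrays (-1.13 ± 0.39, 0.340). The groups did not overlap for these 3 genes.

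**Figure D5:**
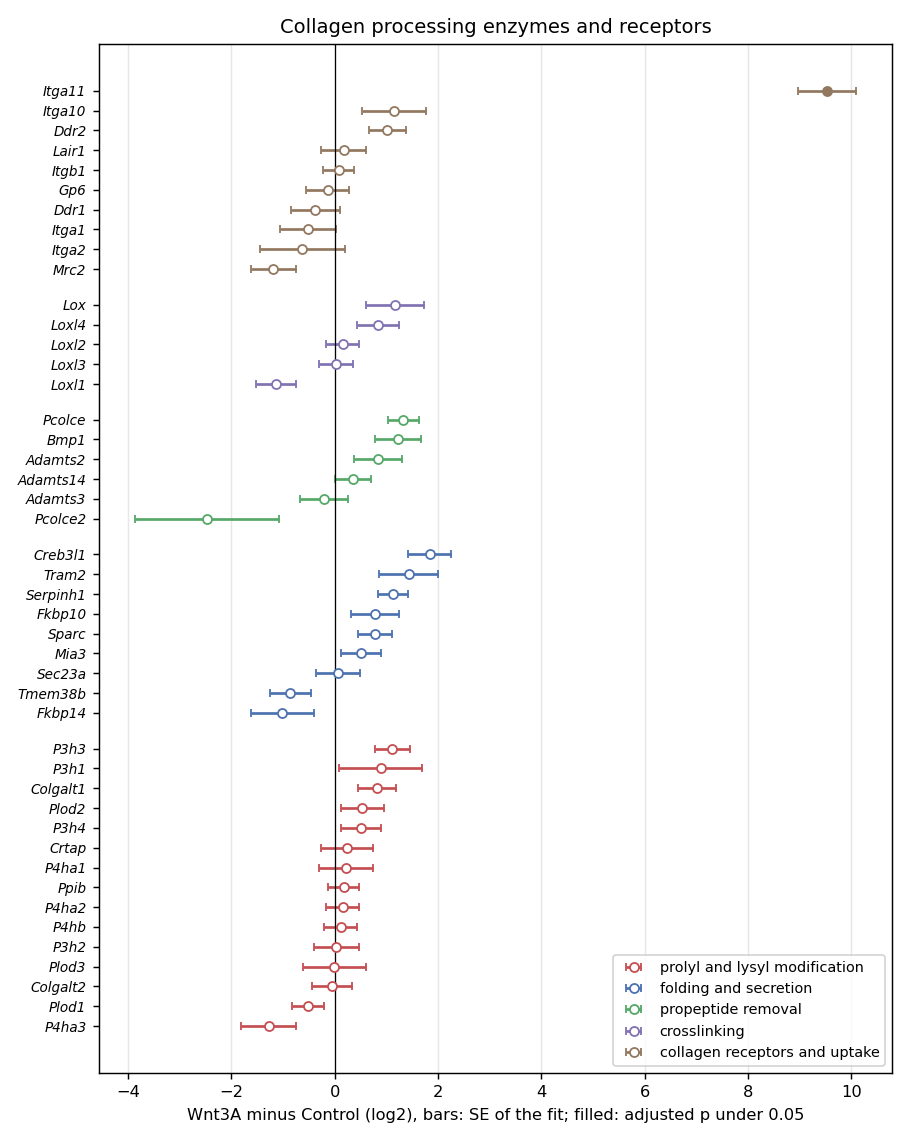
Wnt3A minus Control difference (log2) of 45 genes that modify, fold, trim, crosslink or bind collagen, in groups by role, with bars for the standard error of the fit. The filled point, Itga11 at 9.54, is the gene with an adjusted p under 0.05, and its Control arrays were both below the floor.

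The scanner values did not give the same directions. Of the 60 collagen probes measured in both sources, 33 had the same direction and 27 the opposite one, and among the 27 with an unadjusted p under 0.05 in the table it was 14 and 13. The 3 Col1a1 probes were higher there (0.24, 2.91 and 3.32), whereas both probes of Col3a1 (-0.54 and -0.85) and of Col11a1 (-0.95 and -0.52) were lower. Of the Col27a1 probes, the one that rose in the table was higher (1.73) and the others were lower (-0.76 and -0.31). The main Col4a1 probe was lower in both sources (-0.92 there). The 2 probes of Col18a1 split (-1.04 and 0.58), as did those of Col5a3 (-3.43 and 0.50). The smallest adjusted p of a collagen probe was 0.99991. Without the faint Control replicate 1, an alternative chosen after seeing the data, the gene values were 3.56 for Col1a1, 0.10 for Col3a1, 0.33 for Col11a1, 0.20 for Col4a1, 0.82 for Col18a1 and -0.79 for Col5a3. In each setting the tested probe with the highest mean in that setting stands for the gene. For Col1a1, Col18a1 and Col5a3 this was not the main probe of the table, so their values compare different probes. Col12a1 was measured in the scanner values only with that array left out, and differed by -1.82, opposite in sign to the table. Its probe read 82.0 on Control replicate 2, 151 on Wnt3A replicate 1 and 2.46 on Wnt3A replicate 2. The last was not well above background, and the negative sign rests on that 1 spot. The median of the fibrillar chains was -0.62 in the scanner values and 0.012 when the faint Control replicate 1 was left out, against 1.77 in the table. Processing and receptor genes named above also differed between the sources. Serpinh1 (-1.37), Tram2 (-0.99), Pcolce (-0.77), P3h3 (-1.61), Colgalt1 (-1.21) and Loxl4 (-0.40) were lower in the scanner values, opposite to the table. Mrc2 (1.83) and Loxl1 (0.36) were higher there, also opposite. Creb3l1 (0.25), Bmp1 (0.42) and Ddr2 (0.15) were higher in both sources. Itga11, Lox, P4ha3 and Pcolce2 had no scanner difference.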

How the data were processed

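Gene expression was measured on 4 Agilent 1-colour arrays, 2 per group. The authors deposited a table of linear intensity values for 43379 non-control spots, with a median of 1 in every column and a scaling that is not stated in the sources used here. They also deposited scanner files, which per the file headers hold intensity from Feature Extraction 10.5.1.1, with other columns of flags (0 or 1) for saturation and signal well above background. The table was the main source, as in an earlier analysis of these data, and the scanner values were an alternative. Members, lists and tests were chosen with earlier results of these data known, and the source chosen was the one in which the groups were already known to separate.

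Table values were taken to log2 and aligned by subtracting the 75th percentile of their array, and spots of a probe were averaged. The detection floor of an array was estimated as 4.94 times its 1st percentile, the median factor between that percentile and the dimmest spot with that flag in the scanner files, which makes it lenient. A probe entered the test if 1 group or both had 2 arrays above it, which left 33709. This filter favours genes whose groups do not overlap. Names came from the array annotation through RefSeq accession or symbol, which changed the name of 3 member genes. Groups were compared with limma 3.58.1 (lmFit, eBayes, two-sided) in R 4.3.3, with Benjamini-Hochberg adjustment across the kept probes and a threshold of 0.05. Probe positions are on build mm8. On simulated data for this comparison with 33709 probes, the test found 0% of simulated log2 differences of 1, 0.8% of those of 2, 76.8% of those of 4 and 92.8% of those of 6. Few of the simulated probes were changed, and their noise was normal, so the shares found in the real data may differ. In the scanner files 0 spots were saturated. The number of arrays limits the precision.

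Every member could be named. Full values were given for those past the threshold and, in each class, for the 4 largest differences and the 2 genes of highest mean level, and for companion lists for the 3 smallest p.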

Additional observations from a re-analysis of the deposited data

How the results depend on the processing

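Of 39 collagen genes tested in all 13 alternatives on the table, 29 kept their direction in each, as did all 15 with an unadjusted p under 0.05. The count of collagen genes past the threshold, 0 as reported, was 1 (Col11a1) with a floor 2 times as high, 3 (Col3a1, Col11a1 and Col12a1) with the mean of a gene's kept probes and 6 (Col1a1, Col3a1, Col4a1, Col5a1, Col5a2 and Col11a1) with trend and robust settings. Over all genes these settings called 202 (0.951%), 226 (0.989%) and 233 (1.02%), against 147 (0.643%). The count over all genes was 35 with no filter and 34 when all 4 arrays had to be above the floor. The 4 collagen probes became 2 with no filter (0.131% of all probes), 2 with that stricter filter (0.146%) and 14 with trend and robust settings (12 higher and 2 lower, where 1.04% of all probes passed). Leaving out 1 array gave 0 calls over all genes and all probes, so these fits say nothing about a single call. They gave 0 to 0 collagen probes, 0 to 0 genes of the processing and receptor lists and 11 to 16 collagen genes at an unadjusted p under 0.05 (15 as reported). In these fits, with 1 residual degree of freedom, the lone array of a group is assumed to vary like the other group. The class medians ran over these fits from 1.52 to 1.76 (fibrillar), from -0.41 to -0.29 (network), from -0.39 to 0.056 (FACIT) and from -0.66 to -0.30 (other), so the FACIT sign rested on single arrays: it was 0.034 without Control replicate 1 and 0.056 without Wnt3A replicate 2. The single gene of the processing and receptor lists, Itga11, became 0 with the stricter filter, which removes it.

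In the scanner values, and with normexp correction, 0 collagen genes, 0 collagen probes, 0 genes of the processing and receptor lists and 0 collagen genes at an unadjusted p under 0.05 were found. Class medians were -0.62 (fibrillar), -0.49 (network) and -0.017 (FACIT) in the scanner values and -0.38 (fibrillar) and -0.38 (FACIT) with normexp. Medians of the remaining classes are left out here. The FACIT set in these settings lacked Col12a1 and took in Col19a1 (1.12 in the scanner values), which was not tested in the table. The FACIT medians of the 2 sources are thus of different genes. Without the faint Control replicate 1, an alternative chosen after seeing the data, the counts were 0 again and the medians 0.012 (fibrillar), 0.16 (network), 0.64 (FACIT) and 0.33 (other). The cause was not tested.

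The replicate numbers did not pair the samples (r of deviations of same-numbered arrays 0.012). With the number as a block, 0 collagen genes, 0 collagen probes and 0 genes of the processing and receptor lists passed, and 0 of all genes. Slide and scan could not be used as a block, since all 4 arrays share 1 slide and 1 scan.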
